A study of Mus musculus with 125 samples.

Results

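A set of 92 accessible regions was taken from 256400 consensus peaks in 4 mouse leukaemia lines of B-cell acute lymphoblastic type (B-ALL). In lines A and B these regions opened early under natural killer (NK) cell attack. In the mean over experiments they were back near the level of unexposed cells at the later time point. They were chosen from 110249 peaks on chromosomes 1 to 19 with a mean of 1 CPM or more, where CPM is the count in a peak scaled to a library of 1000000 counts. In both A and B, the mean log2(CPM + 0.5) of B-ALL + NK exceeded that of B-ALL alone by 0.58 or more at time point 1 (TP1) and by less than 0.3 at time point 2 (TP2). The differences in A and B therefore picked the peaks and are given below as a description. The differences in lines C and D were not used in the choice and were tested. The mean CPM was taken over the libraries of all 4 lines, so a region low in A and B could enter through its level in C and D.

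ATAC-seq uses a transposase that cuts and tags open DNA, and it was applied here to 125 libraries of GFP+ leukaemia cells sorted after culture. All 4 lines carried the BCR/ABLp185 fusion kinase. A and B were barcoded from the same parental line and C and D from a different one, so partner lines were not independent. Leukaemia cells without NK cells were taken at TP1 and those with NK cells at both time points. Pairs of a line with an experiment, called combinations below, numbered 6 for A/B and 8 for C/D. There were 3 libraries in 41 groups and 2 in 1 group. The NK cells were primary mouse cells cultured in IL-2, added at an equal number to the leukaemia cells and again, fresh, to the survivors. The labels place TP1 at day 4 and TP2 at day 10, and at days 6 and 16 in experiment 9.7, while the text of the study gives a day for TP2 that is later than day 10. B-ALL alone was sampled only at TP1, so NK exposure and time in culture cannot be told apart at TP2.

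NK cells kill tumour cells with perforin and granzymes and secrete interferon-γ (IFN-γ). IFN-γ acts through JAK kinases and STAT factors, which bind GAS elements and induce IRF1, and IRF factors bind interferon-stimulated response elements (ISREs) at many immune genes. Accessible sites far from promoters are often enhancers, whose openness can follow such signals and close again when the signal or the responding cells are gone. Because ATAC-seq was done on bulk sorted cells, more cells with an open site and a more open site per cell cannot be told apart.

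Most of the 92 regions lay away from promoters. Of them, 53 (57.6%) were intergenic, 35 were intronic, 3 overlapped an exon and 1 a UTR, against 34.9% intergenic among all tested peaks. Only 11 (12.0%) had their centre within 3 kb of a protein-coding transcription start site (TSS), against 25.9% of tested peaks, and the median distance was 29788 bp against 10734 bp. The regions were on all 19 autosomes, had a median width of 1326 bp against 1290 bp, and were poorer in GC over their central 300 bases, with a median of 42.8% against 50.3%. Their mean level was between 1.03 and 21 CPM, with a median of 2.50 CPM against 2.92 CPM. A region had a median of 19 read pairs in a library, so single values carried a large counting error. Each is named here after the nearest protein-coding TSS, which does not say that this gene responds to it.

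To show what these elements are made of, the central 300 bases are printed for 3 of them from the GRCm38.p6 genome, forward strand. Matches to 10 short motifs searched on both strands are in capitals. The first is the region with the largest gain in A and B, in an intron of Vsnl1, a neuronal calcium sensor (chr12:11393065-11393364), where the capitals mark in order a GAS-type, an E-box and a GATA match.

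Vsnl1: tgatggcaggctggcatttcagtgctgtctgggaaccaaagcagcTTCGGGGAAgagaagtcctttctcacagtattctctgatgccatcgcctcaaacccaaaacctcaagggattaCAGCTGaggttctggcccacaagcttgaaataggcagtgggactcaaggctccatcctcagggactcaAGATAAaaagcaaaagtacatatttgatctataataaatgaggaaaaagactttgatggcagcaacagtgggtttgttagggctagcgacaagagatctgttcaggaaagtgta

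The second had the smallest adjusted p among the regions called higher in lines C and D. It lay in an intron of Ptger3, a receptor for prostaglandin E2 (chr3:157572105-157572404), and held 2 RUNX-type matches.

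Ptger3: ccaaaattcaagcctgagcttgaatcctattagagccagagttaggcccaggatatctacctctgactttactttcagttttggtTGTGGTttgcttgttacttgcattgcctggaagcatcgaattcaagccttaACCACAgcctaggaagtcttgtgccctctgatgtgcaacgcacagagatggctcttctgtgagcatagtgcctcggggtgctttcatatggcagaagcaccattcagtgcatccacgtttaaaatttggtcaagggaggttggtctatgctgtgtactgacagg

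The third had the smallest adjusted p among the regions that fell in C and D between time points. It was intergenic, 23775 bp from the TSS of Akap7, an anchor for protein kinase A (chr10:25331495-25331794), and none of the 10 motifs matched in this window.

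Akap7: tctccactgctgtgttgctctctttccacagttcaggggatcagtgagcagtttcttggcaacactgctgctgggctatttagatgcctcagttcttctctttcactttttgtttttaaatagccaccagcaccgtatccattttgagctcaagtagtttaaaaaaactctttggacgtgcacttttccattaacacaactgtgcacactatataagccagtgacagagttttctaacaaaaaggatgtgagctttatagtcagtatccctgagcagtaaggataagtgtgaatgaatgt

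In lines A and B the early gains were moderate and crowded just above the limit of the rule. The median difference at TP1 was 0.70 in A, with a range of 0.58 to 1.27, and 0.67 in B, with a range of 0.58 to 1.095. At TP2 the medians were 0.19 in A and 0.16 in B, and 84 and 78 of the 92 regions were still above 0. Of 3466 tested peaks with an early gain in both lines, the 92 made up 2.65%, 644 were below 0.3 later in 1 line only, and 1365 were still at 0.58 or more in both. The regions nearest the early limit from the inside were at Eif4e (0.581 in A), Plekha5 (0.584 in B) and Tbr1 (0.585 in B), and the nearest outside were at Zfp141 (0.577), a region near Adgrl2 that is not a member (0.576) and Ccdc28a (0.576). At the later limit, Lpp (0.2998 in B), 1190002N15Rik (0.299 in A) and Ntng1 (0.298 in B) lay just inside and Samsn1 (0.3001), Pum2 (0.301) and Dlg2 (0.302) just outside. All 92 were chosen by thresholds, and in the edgeR fit of A/B, which used the same libraries, 90 were called higher at TP1 and 0 lower (4.91% and 1.01% of all tested peaks were), and 92 were higher at the adjusted p (10.3% were). At TP2, 0 were called higher by edgeR (2.96% were) and 0 passed the adjusted p upward (6.49% were), and between time points 52 were called lower (1.23% were) and 84 passed the adjusted p downward (3.97% were). These counts are fixed by the choice. In 87 of the 92 the gain was seen in every one of the 6 combinations of A/B. Which peaks met the rule was sensitive to its settings. With a pseudocount of 1 in place of 0.5, 58 peaks met it, 35 of them among the 92, and with 2, 29 did, 9 of them among the 92. Without replicate 2 of each group 233 did, 61 of them among the 92. Without replicate 1 or 3, 26 and 27 of the 92 were kept. Without experiment 9.5, 9.6 or 9.7, 38, 35 and 21 of the 92 were kept. With library sizes scaled by TMM 95 peaks met it, 48 of them among the 92.

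**Figure D1:**
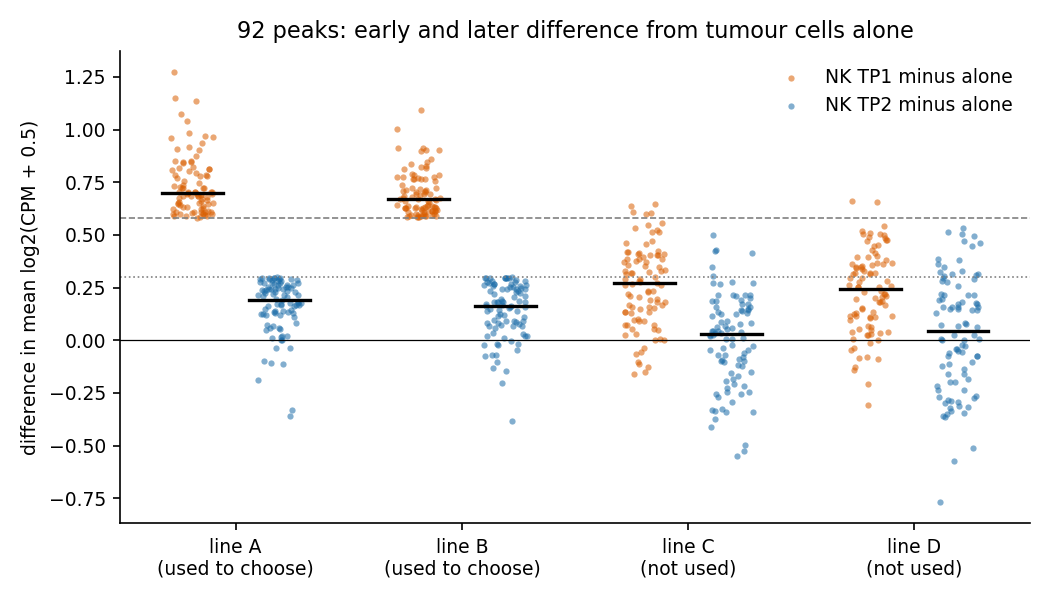
Difference in mean log2(CPM + 0.5) from B-ALL alone for each of the 92 regions (points) at TP1 and TP2 in each line, with the median as a black bar and the limits of 0.58 (dashed) and 0.3 (dotted). Lines A and B are fixed by the rule, and in C and D the medians were 0.27 and 0.24 at TP1 and 0.03 and 0.05 at TP2.

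Lines C and D, which entered the choice only through the filter on the mean level, answered whether the early opening was seen in cells from the other parental line. At TP1 the 92 regions lay above the rest, by less than in A and B. Their median log2 fold change in the edgeR fit was 0.33 against -0.03 over all tested peaks, and 85 of 92 were above 0 against 44.2% of all peaks. With p adjusted by Benjamini-Hochberg over all 110249 peaks and a limit of 0.05, 44 (47.8%) were higher with NK cells, where 6.03% of all tested peaks were, and 0 were lower, where 2.07% were. With the fold limit of the study added (absolute log2 fold change of 0.58 or more), 9 (9.78%) were called higher, where 1.59% of tested peaks were, and 0 were called lower, where 0.268% were. At an unadjusted p of 0.05 by edgeR, 59 regions were higher and 0 lower, where 12.0% and 11.3% of tested peaks were, and DESeq2 called 9 higher and 0 lower, where 1.68% and 0.279% were. Taken line by line, the mean difference was above 0 for 84 regions in C and 82 in D, but it reached 0.58 for only 5 and 2 of them. The call counts leaned on experiment 9.7, without which 5 were called higher, where 1.42% of tested peaks were. With 1 line alone 10 (C) and 6 (D) were called, where 1.46% and 1.36% of tested peaks were. Leaving out 1 replicate number at a time gave 9 calls each time, where 1.42% to 1.53% of tested peaks were called. Past the adjusted p were 25 to 28 regions.

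The 9 regions called higher in C/D sat near genes of diverse kinds. The region in the Ptger3 intron (chr3:157571622-157572889) was among the most accessible, with a lowest, median and highest library of 6.57, 11.3 and 17.8 CPM in C/D alone, 12.0, 16.0 and 25.4 CPM with NK cells at TP1, and 9.12, 14.0 and 18.4 CPM at TP2. All 24 NK libraries at TP1 were above the median of the cells alone, although the ranges overlapped. Its log2 fold change was 0.62 ± 0.09 (SE, edgeR adjusted p = 3.64e-08) at TP1, higher in 8 of 8 combinations. The intergenic Akap7 region (chr10:25331254-25332037) went from a median of 1.84 CPM alone (range 0.474 to 3.42) to 2.89 CPM at TP1 (1.64 to 5.94) and back to 1.69 CPM at TP2 (0.456 to 5.27). Its fold change of 0.76 ± 0.12 (edgeR adjusted p = 1.66e-06) was positive in all 8 combinations, and 10 of 24 libraries exceeded the highest library of cells alone.

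The largest fold change of the 9 was in an intron of Olfml2a, an extracellular matrix protein (chr2:38955921-38956462), at 0.85 ± 0.15 (edgeR adjusted p = 2.52e-05). It had a median of 1.15 CPM alone (0.506 to 2.66), 2.10 CPM at TP1 (1.22 to 3.50) and 1.54 CPM at TP2 (0.443 to 3.96), and all 24 libraries at TP1 were above the median of cells alone. The region 35712 bp from Hs1bp3 (chr12:8353132-8353514) was called at 0.82 ± 0.16 and that in an intron of Dnah11, an axonemal dynein (chr12:118016584-118017640), at 0.74 ± 0.16, each higher in 8 of 8 combinations. At this low level, near 1 CPM, neither was called as a broad peak in more than 3 of the 24 libraries at TP1. The remaining 4 were intergenic near Tmem158 (0.64 ± 0.17), in introns of Fam129a (0.64 ± 0.16) and of Lpxn, a paxillin family adaptor of blood cells (0.59 ± 0.14), and inside Eaf2 close to the Iqcb1 TSS (0.63 ± 0.13). Across the 18 other settings tried, the Akap7, Hs1bp3 and Olfml2a regions were called in all 18, Dnah11 in 16, Ptger3 and Iqcb1 in 15, Fam129a and Tmem158 in 13 and Lpxn in 11.

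**Figure D2:**
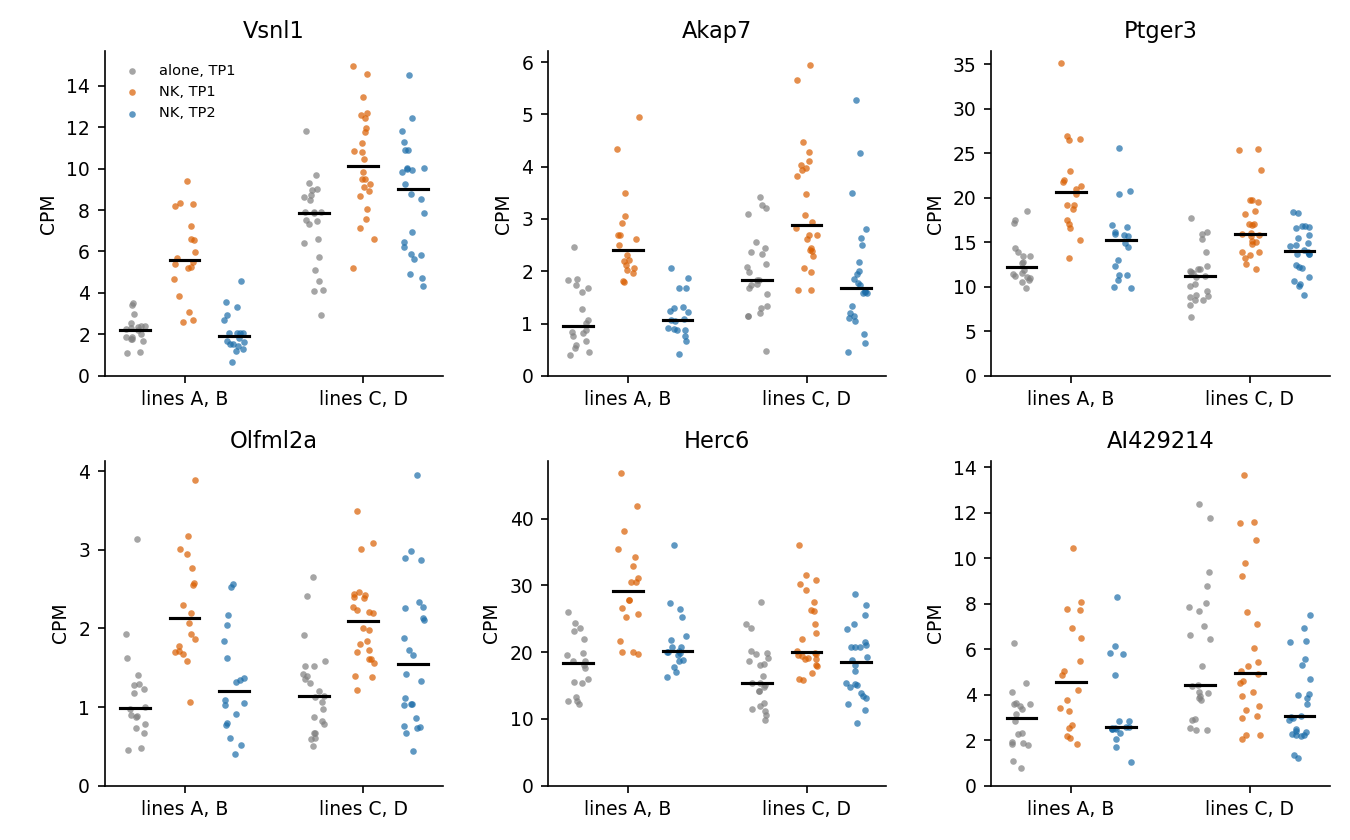
CPM in every library (points) and the median (bar) for 6 of the regions, in B-ALL alone at TP1, B-ALL + NK at TP1, and the same at TP2, for lines A/B and C/D. In the Akap7 panel the C/D medians are 1.84, 2.89 and 1.69 CPM, and in the AI429214 panel they are 4.43, 4.97 and 3.06 CPM.

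At TP2 the median of the set in C/D was level with that of all tested peaks. Against B-ALL alone, the median log2 fold change was 0.01, the same as over all tested peaks to 2 decimals, and 48 of 92 regions were above 0 against 51.2% of all. Of the 92, 1 was called higher (1.2% of tested peaks were) and 3 were called lower (0.967% were), and the adjusted p alone was passed by 9 (7.56%) and 6 (7.66%). The region called higher was the Tmem158 one at 0.61 ± 0.18 (edgeR adjusted p = 0.00979), with a median of 0.698 CPM alone (0 to 1.61), 1.11 CPM at TP1 (0.339 to 2.18) and 1.07 CPM at TP2 (0.297 to 2.44). The 3 called lower were at Dach1 (-0.82 ± 0.15), AI429214 (-0.62 ± 0.15) and Ncam2 (-0.61 ± 0.19), of which Dach1 and this Ncam2 region were singled out after their values were seen. At TP1 in C/D none of these 3 passed the adjusted p, and their fold changes were -0.23, 0.06 and 0.13.

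The change between the 2 time points with NK cells pointed down. Its median was -0.30 against 0.02 over all tested peaks, and 86 of 92 regions were lower at TP2. At the adjusted p alone 49 fell, where 10.5% of tested peaks did, and 0 rose, where 8.7% did, and with the fold limit 12 were called lower, where 0.716% were, and 0 higher, where 1.15% were. At an unadjusted p of 0.05, 1 region was higher by edgeR, where 17.6% of tested peaks were. DESeq2 called 0 higher, where 1.18% were. This contrast and the one at TP1 share the NK libraries of TP1, so a chance high value in those libraries would raise the first and lower the second, and the counts are not independent of each other. It also rested on part of the libraries. Without replicate 2 of each group 1 region was called lower and 3 passed the adjusted p, and calls over all tested peaks dropped to 0.16%, while in line D alone 0 passed (calls over all tested peaks were 0.0789%) and in line C alone 15 were called (1.42%).

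Among the 12 called lower, the smallest adjusted p was again that of the Akap7 region, at -0.81 ± 0.12 (edgeR adjusted p = 3.03e-06), lower in 8 of 8 combinations. A region in an intron of Myo16, an unconventional myosin (chr8:10534715-10535420), fell by 0.65 ± 0.11 on the log2 scale, from a median of 9.95 CPM at TP1 (3.49 to 18.4) to 6.35 CPM at TP2 (1.93 to 17.7), against 7.85 CPM alone (3.69 to 13.4). The ranges of the 3 groups overlapped, and 7 of 8 combinations showed the fall. The next by adjusted p were a region 633527 bp from Adgrl2, a latrophilin receptor (chr3:149623467-149624698, -0.62 ± 0.11), one at the start of AI429214 (-0.68 ± 0.14) and one 85698 bp from Ntng1, a netrin family axon guidance protein (-0.63 ± 0.14). Those 3 had fold changes of 0.24, 0.06 and 0.27 at TP1 that did not pass the adjusted p, so of the 92 regions the one called at both steps was that near Akap7.

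**Figure D3:**
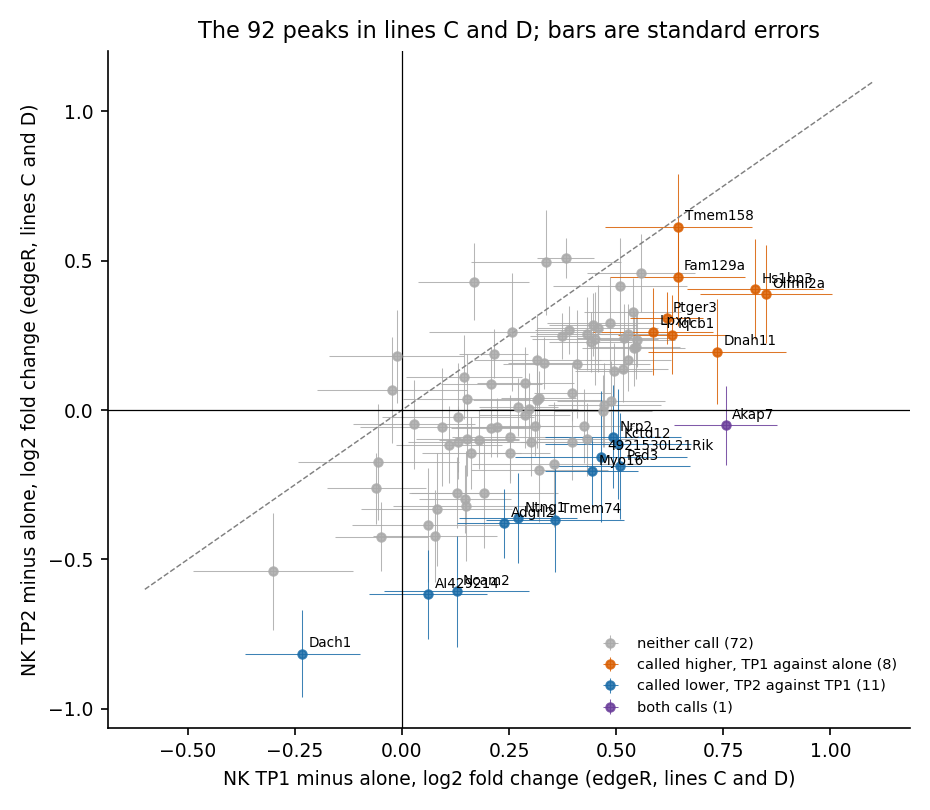
Fitted log2 fold change against B-ALL alone in lines C and D at TP1 (x axis) and TP2 (y axis) for the 92 regions, with standard errors as bars and the line of equality dashed. Points lie mostly right of 0 and below the dashed line, and 1 region (Akap7) has both the call at TP1 and the call for the fall.

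The values by experiment showed how uneven this was in C/D. In A/B, where the rule set the direction, the median difference at TP2 was 0.43 in A and 0.20 in B in experiment 9.5. Over all tested peaks it was 0.21 and 0.05 there. In A in 9.5, 30 of the 92 regions were still at 0.58 or more at TP2, where 21.6% of tested peaks were. The other A/B combinations had TP2 medians from -0.02 to 0.14, so the return to near 0 was uneven in A/B as well. At TP1 the median difference in A/B lay between 0.65 and 0.78 in the 6 combinations. In C/D it was 0.62 in D and 0.29 in C in experiment 9.7, 0.40 in C and 0.16 in D in 9.6, 0.30 in D and 0.09 in C in 9.5, 0.24 in C in 9.5.1 and -0.16 in D in 9.6.1. The last was the single combination with a median below 0, and 36 of its 92 regions were above 0, where the median of all tested peaks was -0.07 and 41.1% were above 0. In D in 9.7, 87 of 92 were, against 47.8% of all tested peaks. Without experiment 9.6.1, 15 regions were called higher at TP1, where 1.76% of tested peaks were, and 46 passed the adjusted p. From TP1 to TP2 the median difference was below 0 in 6 of the C/D combinations, at -0.69 and -0.60 in D and C in 9.7, where all tested peaks had -0.25 and -0.16. It was above 0 in both lines of 9.5 (0.07 in C and 0.18 in D), where all tested peaks had 0.20 and 0.22, so the regions lay below the rest there too. The difference between D and C in the TP1 effect gave 0 calls among the members by edgeR (0% of tested peaks in either direction), with 0 higher and 1 lower at an unadjusted p of 0.05 (1.05% and 1.19% of tested peaks), and 0 by DESeq2. Experiment 9.7, with its later days, had a median excess of 0.25 over the other experiments and 73 of 92 regions above 0, yet 0 passed the adjusted p by edgeR, and 0 by DESeq2, which gave no adjusted p for 40 of them (calls over all tested peaks were 0.176% higher and 0.0907% lower). At an unadjusted p of 0.05 there were 15 higher, where 6.42% of tested peaks were, and 1 lower, where 6.46% were. In simulated data of this size, interaction fits recovered 18% (D minus C) and 15% (experiment 9.7) of 1.5-fold differences at the adjusted p alone. Such differences could therefore have been missed.

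**Figure D4:**
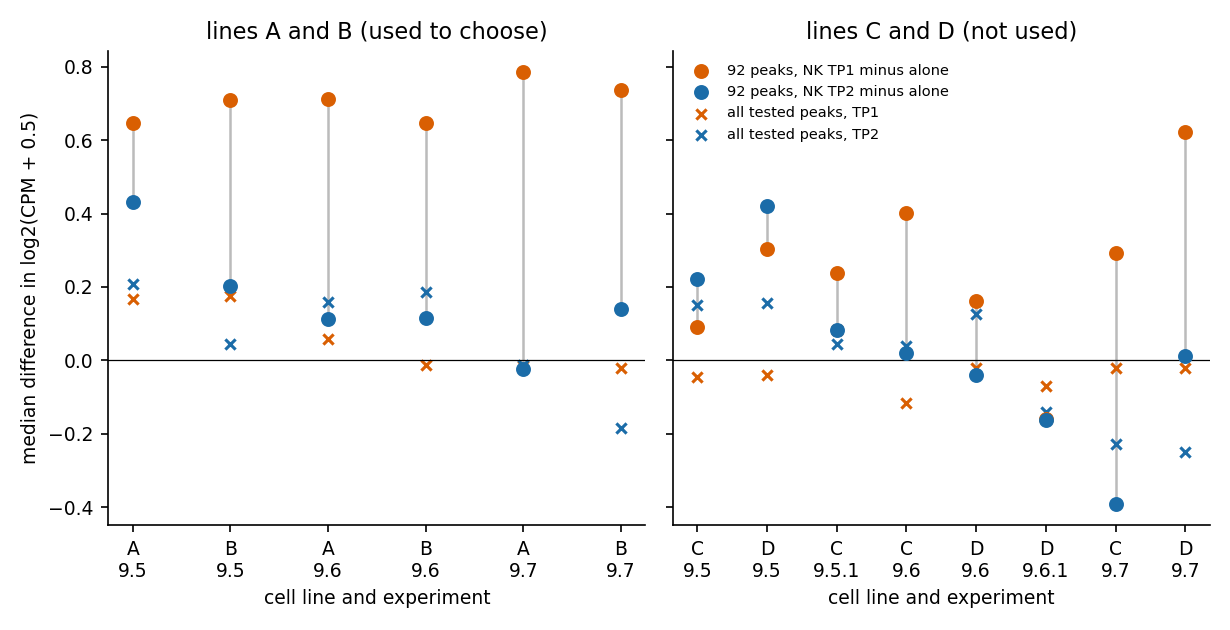
Median difference in log2(CPM + 0.5) from B-ALL alone over the 92 regions (circles) and over all tested peaks (crosses) in each combination. In C/D the TP1 medians run from -0.16 (D in 9.6.1) to 0.62 (D in 9.7), and in 9.5 the TP2 circles lie above the TP1 circles.

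The regions with the largest gains in A and B had neural and signalling genes, as well as a chemokine gene, as their nearest. At the Vsnl1 intron (chr12:11392395-11394036) the lowest, median and highest A/B library was 1.09, 2.23 and 3.53 CPM alone, 2.61, 5.597 and 9.39 CPM at TP1 and 0.663, 1.94 and 4.59 CPM at TP2. In A/B, 15 of 18 libraries at TP1 were above every library of cells alone, a description of the values that chose the region. C/D started higher, at a median of 7.85 CPM alone (2.93 to 11.8), and reached 10.1 CPM at TP1 (5.21 to 14.97), a fold change of 0.55 ± 0.09 (edgeR adjusted p = 1.55e-06) that passed the adjusted p but not the fold limit. At TP2 it stood at 8.99 CPM (4.32 to 14.5), lower than at TP1 by -0.31 ± 0.08 (adjusted p = 0.00664).

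Cxcl12, the chemokine that retains B-cell precursors in the bone marrow, had a region 73570 bp away (chr6:117241171-117243123) with gains of 1.14 in A and 0.79 in B. In C/D its median went from 2.61 CPM (1.49 to 3.87) to 3.65 CPM (1.47 to 5.09), a fold change of 0.43 ± 0.12 (edgeR adjusted p = 0.0113). The region nearest to Trps1, a GATA-type repressor, lay 426843 bp from its TSS and had 0.49 ± 0.13. The nociceptin receptor gene Oprl1 had one with 0.55 ± 0.10, and Ltn1, a ubiquitin ligase of stalled ribosomes, an intronic one with 0.47 ± 0.13. All 3 passed the adjusted p at TP1. Each of those 3 also fell from TP1 to TP2, by 0.46, 0.34 and 0.46 on the log2 scale. The region nearest to Kctd12, an accessory subunit of GABA-B receptors, lay 475648 bp from its TSS. It had 0.50 ± 0.17 (edgeR adjusted p = 0.0498), at the edge of the threshold. By contrast, Fam78b (0.17 ± 0.13) and an Ncam2 intron, in a neural adhesion gene (0.08 ± 0.18), did not pass at TP1 although both were among the 10 regions with the largest mean gain in A and B. The Fam78b region was instead higher at TP2 in C/D, at 0.43 ± 0.13 (adjusted p = 0.0148).

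The promoter-proximal regions, where a link to a gene is most direct, comprised both immune and structural genes. Herc6, an interferon-inducible ubiquitin ligase family member, with an intronic region 496 bp from a TSS, had 18.3 CPM alone (12.2 to 26.0), 29.2 CPM at TP1 (19.7 to 46.8) and 20.1 CPM at TP2 (16.3 to 36.1) as A/B medians and ranges. In C/D the medians were 15.4 CPM (9.79 to 27.4), 20 CPM (15.8 to 36.1) and 18.5 CPM (9.37 to 28.7), and all 24 libraries at TP1 were above the median of cells alone. The C/D fold change was 0.49 ± 0.09 at TP1 (edgeR adjusted p = 3.14e-05), and the fall to TP2 was -0.36 ± 0.09 (adjusted p = 0.00287). Ly86, whose product MD-1 pairs with the Toll-like receptor homologue Cd180 on B cells, had an intronic region 2940 bp from a TSS (chr13:37347175-37349484) with 0.37 ± 0.08 (adjusted p = 0.000205) at TP1 that was still at 0.25 ± 0.08 (adjusted p = 0.0188) at TP2. Its C/D medians were 10.6 CPM alone (7.11 to 13.2), 12.8 CPM at TP1 (9.17 to 18.4) and 12.3 CPM at TP2 (5.87 to 14.7), so this region gained but did not pass the test for a fall (adjusted p = 0.219). The set also held a region near Cd180 itself, picked out after the values were seen for this pairing, which had 0.13 ± 0.11 at TP1 (adjusted p = 0.497) and -0.41 from TP1 to TP2 (adjusted p = 0.00874).

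Of the other promoter-proximal regions, those of Tanc2, a synaptic scaffold (0.52 ± 0.11, adjusted p = 0.000393 by edgeR), and Syne2, the nuclear envelope protein nesprin-2 (0.31 ± 0.09, adjusted p = 0.0260), were higher at TP1 in C/D, and Tmem171 was at the threshold (0.27 ± 0.09, adjusted p = 0.0493). The region 186 bp from the Iqcb1 TSS, inside the neighbouring gene Eaf2, a cofactor of transcription elongation (chr16:36850541-36853017), rose from 2.40 CPM (0.963 to 5.61) to 3.41 CPM (1.39 to 8.40) and had 2.73 CPM at TP2 (0.999 to 5.89). Adtrp (0.21 ± 0.08), Plekha5 (0.26 ± 0.19), AI429214 (0.06 ± 0.14) and Ccl4 (0.11 ± 0.12) did not pass. Ccl4, a chemokine that attracts NK cells and macrophages, was the single gene of the pathway lists with a member nearest to it (chr11:83661695-83662910). Its A/B medians were 1.46, 2.77 and 1.63 CPM and its C/D medians 2.24, 2.32 and 2.08 CPM, with the C/D ranges overlapping.

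The lists of interferon genes moved at their own promoters. At the peak nearest to a TSS in C/D at TP1, 15 of 16 measured IFN-γ-induced GTPase genes were higher at the adjusted p (6 past the fold limit, 0 lower), with a median of 0.41, and so were 21 of 28 antiviral interferon-stimulated genes (6 past the fold limit, 0 lower), with a median of 0.44. At TP2 their medians against cells alone were 0.29 and 0.23, so these promoters kept more of the gain than the 92 regions did. These promoters also fell from TP1 to TP2 in C/D, with medians of -0.29 and -0.11 against -0.30 in the 92. At the adjusted p, 10 of 16 and 11 of 28 were lower and 0 higher, where 10.5% of tested peaks were lower. The differences from the 92 regions were not tested. Of the interferon signalling and feedback genes 6 of 19 were higher and 0 lower, of the TNF and NF-κB targets 1 of 20 was higher and 0 lower, of the AP-1 and immediate early genes 0 of 23 passed in either direction by edgeR, and of the STAT5 targets 1 of 13 was higher and 0 lower. None of the 92 had a gene of the GTPase, antiviral, signalling, AP-1 or STAT5 lists as its nearest protein-coding gene.

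The early gains that stayed had larger medians, which in A and B is a description of the values that split the sets. The 1365 peaks still at 0.58 or more at TP2 in both A and B had median TP1 gains of 1.23 in A and 1.11 in B, against 0.70 and 0.67 in the 92. In C/D their median was 0.72 at TP1 and 0.57 at TP2, against 0.33 and 0.01, and 66.2% were called higher at TP1, against 9.78%. The change from TP1 to TP2 in C/D had a median of -0.16 in the kept gains and -0.30 in the 92, and 25.3% against 53.3% fell at the adjusted p. Both sets were chosen from A/B and no test of the difference was made. Starting levels were alike, with a median log2(CPM + 0.5) in A alone of 1.17 in the 92 and 1.11 in the kept gains.

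Sequence gave the set a feature that the rule had not used. The letters of an ISRE-type element for IRF factors, GAAA, 2 bases of any kind and GAAA, were found on either strand in the central 300 bases of 15 of the 92 regions (16.3%), against 3.93% of all tested peaks and 22.6% of the kept early gains. Among all tested peaks in the range of GC that held the members between the lower and upper quartile (39.3% to 48.2%), the share was 5.89%, and 6 of the 46 members in that range had the letters. For 6 of the named regions with a match, 30 bases around 1 match are shown from GRCm38.p6 on the strand where it reads GAAA first, with the match in capitals.

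Oprl1: attcatttctGAAAGTGAAAatcctttcat
Ltn1: cacataaattGAAAAAGAAAgggaaagggg
Tmem158: gcataggactGAAAGTGAAAgagaactgtt
Adtrp: gaaaacaaatGAAACCGAAAgtgtaagttt
Ly86: taagaggactGAAAAGGAAAagaagaagga
Plekha5: tgcctagtgaGAAATTGAAAataagtgttc

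In order, these lie at chr2:181727958-181727987 (reverse strand), chr16:87415107-87415136 (forward), chr9:123239842-123239871 (reverse), chr13:41849508-41849537 (reverse), chr13:37348382-37348411 (forward) and chr6:140514641-140514670 (reverse). Of the 15 regions with the letters, 12 were higher in C/D at TP1 at the adjusted p with a median fold change of 0.47, against 32 of the 77 without, with a median of 0.31. At TP2 the medians were 0.24 and -0.05. The difference between regions with and without a match was not tested. Among the 6 shown, Adtrp and Plekha5 were those that did not pass in C/D.

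The other letters differed from all tested peaks by fewer percentage points. The GAS-type letters of STAT factors (TTC, 3 bases of any kind and GAA) occurred in 13.04% of the regions against 8.35% of tested peaks, the GATA letters AGATAA in 18.5% against 11.8%, and the T-box letters AGGTGTGA in 5 regions (5.43%) against 1.49%. RUNX letters (TGTGGT) were found in 27.2% against 24.1%, AP-1 letters (TGA, any base, TCA) in 12.0% against 9.09%, ETS letters (AGGAAGTG) in 5.43% against 4.78% and the E-box CAGCTG in 17.4% against 20.2%. NF-κB letters (GGGA, 4 bases of any kind and CC) were in 10.9% against 16.8%, and core CTCF letters (CCAC, any base, AGG) in 1 region (1.09%) against 6.75%. In the GC range given above, NF-κB letters were in 6 of 46 members against 9.83% of peaks, which turns the direction. T-box letters were in 1 of 46 against 1.42% and CTCF letters in 1 of 46 against 5.13%. GATA letters were in 9 of 46 against 16.8% of peaks and GAS-type letters in 6 of 46 against 10.6%. A match is a description of the letters and not a bound site, and motifs were allowed to overlap.

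**Figure D5:**
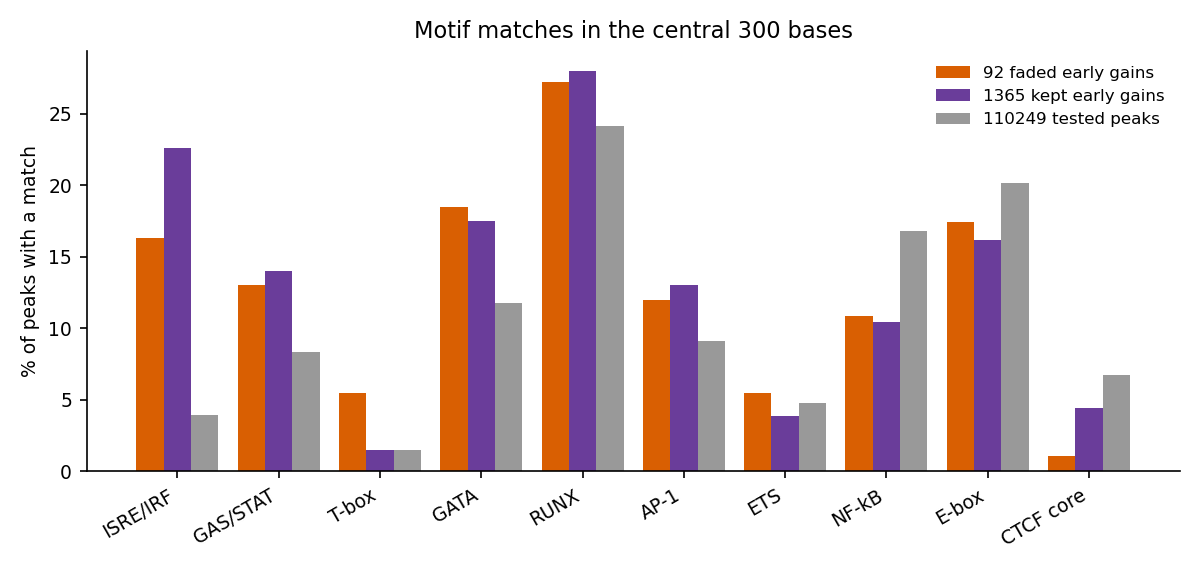
Percentage of peaks with a motif match in the central 300 bases for the 92 regions, the 1365 early gains kept at TP2 in A and B, and all 110249 tested peaks. The ISRE/IRF bars stand at 16.3%, 22.6% and 3.93%, and the CTCF bars at 1.09%, 4.40% and 6.75%.

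Peak calls in single libraries gave another view of the same reads. A region overlapped a broad peak in a mean of 34.0% of the C/D libraries alone, 48.9% at TP1 and 36.4% at TP2, against 39.2%, 43.2% and 40.6% over all tested peaks. In C/D, 17 of the 92 regions were called in 0 of 23 libraries alone and 9 in 0 of 24 at TP1. The Akap7 region was called in 3 of 23, 21 of 24 and 8 of 24 libraries, and the Lpxn region in 1, 14 and 4. Libraries with NK cells at TP1 were also deeper, with a median total of 8777344 counts in C/D against 7442967 alone, and the part of depth in these calls was not tested.

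Sorted cells can carry over NK cells, so markers were followed beside the results. Promoter peaks of 22 of 32 NK cell marker genes could be measured (30 peaks), and Ncr1 and Ifng had no promoter peak. Their summed level in A/B had a median of 168 CPM alone (151 to 190), 187 CPM at TP1 (152 to 216) and 173 CPM at TP2 (145 to 197), which moved in the same direction as the regions at both steps. In C/D it was 164 CPM alone (139 to 185), 164 CPM at TP1 (144 to 196) and 159 CPM at TP2 (141 to 185), and 0 of the 22 genes passed the adjusted p at TP1 in C/D by edgeR. Of all tested peaks, 6.03% were higher and 2.07% lower in that comparison. Between time points in C/D, 4 of the 22 were lower at the adjusted p and 0 higher, where 10.5% and 8.7% of tested peaks were. In A/B at TP1, 4 were higher and 1 lower, where 10.3% and 11.9% of tested peaks were. Between time points in A/B, 4 were lower and 0 higher, where 3.97% and 2.03% were. Gzmb, a granzyme, went from a median of 2.03 to 3.75 and 2.64 CPM in A/B and Prf1, perforin, from 2.25 to 3.26 and 2.22 CPM. At TP1 in A/B, Klrd1 (4.55 to 5.34 CPM) and Nkg7 (4.2 to 5.6 CPM) were also higher. Markers at a higher level did not rise in this way: Klrb1c (18.31 to 17.52 CPM), Eomes (15.51 to 15.48 CPM) and Tbx21 (12.56 to 12.59 CPM). Summed myeloid markers (9 of 12 genes measured) were 50.9 and 59.4 CPM at TP1 in A/B without and with NK cells and were 64.2 and 66.9 CPM in C/D, while T cell markers (7 of 10) were 73.9 and 71.2 CPM in A/B and 66.8 and 70.4 CPM in C/D. In the combination with the lowest member median at TP1, D in 9.6.1, the NK marker sum was 178 CPM alone and 159 CPM with NK cells. Outside the marker list, a member had the NK receptor gene Klra7 as its nearest gene, picked out after the values were seen. Its medians alone, at TP1 and at TP2 were 4.91, 8.41 and 5.04 CPM in A/B and 5.71, 6.90 and 5.58 CPM in C/D. Housekeeping promoters (14 of 16 genes) summed to 1054, 997 and 1003 CPM in A/B. At the adjusted p, 5 of those 14 were lower at TP1 in A/B, as were 11 of 20 B-cell identity promoters, where 11.9% of tested peaks were. The part of these shifts in the results of A/B was not tested. The B-cell identity promoters were open in all groups, with medians of 1236 to 1450 CPM over 20 of 20 genes, Pax5, Ebf1, Cd79a and Vpreb1 among them.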

How the data were processed

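ATAC-seq read pairs were processed by the authors with a Nextflow pipeline: STAR alignment to GRCm38, duplicate marking with Picard 2.27.4, MACS2 2.2.7.1 broad peaks for each library, a merged consensus, and featureCounts 2.0.1, which let a pair count in every peak it overlapped by a fraction of 0.2 or more. The deposited counts are raw read pairs per consensus peak, and the deposited broad peak files, which hold -log10 q-values, were used only for overlap. The STAR version used for ATAC-seq was not given in the sources used here. The named blacklist was of a human build.

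CPM was computed here from column sums. Peaks with a mean of 1 CPM or more on chromosomes 1 to 19 (110249) were fitted with edgeR 4.0.16 (TMM, quasi-likelihood, 1 intercept per line and experiment, arm effects shared), separately for A/B and C/D. P-values were two-sided and adjusted by Benjamini-Hochberg over all tested peaks. The quasi-likelihood test gives no standard error. The values after ± and the bars were back-calculated as the absolute log2 fold change divided by the square root of the F statistic. In C/D, 2 pairs of libraries that differed by less than the sampling noise were averaged, giving 69 samples of 71 libraries. The labels call replicates separate samples of a group, and the study describes individual wells for each condition of a co-culture. Where libraries do not come from separate wells, p-values measure technical spread. The fits counted each library as independent and shared 1 arm effect over combinations. The p-values therefore do not take the experiment as the unit of replication, and an effect that differs between combinations enters them only as spread among libraries. Library totals ran from 3083547 to 13580746 counts. On 20000 simulated peaks the C/D fit at TP1 recovered 89% of 1.5-fold and 98% of 2-fold changes at the adjusted p, without the fold limit. The simulated peaks shared 1 spread, and a change was the same in every combination, unlike the uneven values seen here.

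The members, gene lists and motifs were chosen with earlier results of these data known. Regions named in the text were the 10 with the largest mean gain in A and B, up to 10 called higher in C/D at TP1, up to 5 called lower at TP1, up to 5 called lower between time points (both by adjusted p), up to 5 called higher at TP2, up to 5 called in each interaction, up to 8 within 3 kb of a TSS by gain, up to 3 next to a gene of each list, and the 3 peaks nearest each limit of the rule on either side. Genes were assigned from the GENCODE M21 annotation of GRCm38, motifs were searched on both strands of the central 300 bases, and list genes were measured at peaks within 3 kb of a TSS. Alternatives were other scalings (DESeq2 1.42.0 included), filters, pseudocounts and limits, a replicate block, and leaving out each replicate number, experiment or line.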

Additional observations from a re-analysis of the deposited data

Results flagged for a closer look

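The rule was limited to chromosomes 1 to 19. Among the 1641 peaks outside them with a mean of 1 CPM or more, which no comparison used, 8 on the X chromosome met the same values in A and B. They were flagged as a signal in data outside the main measurement and were not tested.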

How the results depend on the processing

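The direction of the median in C/D held in every alternative run at TP1 and between time points, and the calls moved. At TP1, 9 regions were called higher, against 16 with a loess offset, 16 with no filter on low counts, 14 without experiment 9.5, 15 without 9.6.1 and 5 without 9.7. Over all tested peaks the share called higher was 1.59%, against 1.92%, 1.09%, 1.63%, 1.76% and 1.42% in the same order. The 44 past the adjusted p became 25 to 28 without 1 replicate number, 22 without 9.7, 23 in line C alone and 11 in line D alone. At TP2 against cells alone, the 4 calls became 2 to 4 without 1 replicate number, 2 without 9.7 and 0 in line C alone. Over all tested peaks, 1.2% higher and 0.967% lower became 1.14% to 1.42% and 0.834% to 0.966% without 1 replicate number. They were 3.54% and 1.13% without 9.7 and 0.807% and 0.693% in line C alone. The 9 higher at the adjusted p became 4 with no filter, 2 to 9 without 1 replicate number, 5 without 9.5, 1 in line C and 5 in line D, and the 6 lower became 1 to 3, 1 in line C and 1 in line D. Between time points, the 12 called lower became 1 to 17 without 1 replicate number and 0 in line D. With experiments 9.5, 9.6 and 9.7 left out in turn, 20, 5 and 6 were called lower. Over all tested peaks, 0.716% called lower became 0.16% to 1.32% without 1 replicate number and 0.0789% in line D. With those experiments left out in turn the share was 1.4%, 0.587% and 0.638%. The 49 past the adjusted p became 3 to 37 without 1 replicate number, 17 without 9.6, 24 without 9.7 and 0 in line D. Without 9.7, 1 was called higher, where 5.39% of tested peaks were. The cause of these shifts was not tested.

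The TP2 median of 0.01 turned to -0.0507 without 9.5 and -0.009 in line C alone. The D minus C median of -0.01 turned to 0.0012 without TMM and 0.0074 with the replicate block, and ran from -0.1015 to 0.0661 without 1 replicate number. The rule gave 92 peaks, against 58 with a pseudocount of 1, 29 with 2, 55 at a mean of 2 CPM, 27 and 268 with a later limit of 0.2 and 0.4, 235 and 12 with an early limit of 0.5 and 0.75, 58 to 233 without 1 replicate number, 276 without 9.5 and 57 without 9.7. ISRE-type letters were in 9.78% of the regions over 200 bases and 26.1% over 500 bases, against 2.599% and 6.43% of all tested peaks.

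Same-numbered libraries did not deviate together (median r -0.00211 over 54 pairs in A/B, 8 over 0.1, and 0.0212 over 70 pairs in C/D, 11 over 0.1), so numbers were not taken as pairing. With the replicate block, 9 were called higher at TP1 and 39 passed the adjusted p, 4 were called at TP2, and 10 were called lower between time points with 44 past the adjusted p. Over all tested peaks, 1.54% were called higher at TP1, 1.15% higher and 0.874% lower at TP2, and 0.709% lower between time points.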
